A study of Mus musculus with 46 samples.

Results

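Pairs of promoters from the Nanog locus were measured as reporters that carried one promoter fragment in front of another, with no other insert. They were the combinations of the Nanog library in which both fragments were promoters and whose activity was above 0 in each of 3 biological replicates, and 138 of the library's 155 such pairs met that rule. The whole table of 2-fragment combinations holds 89293 entries, 13524 of them from the Nanog library. The 17 pairs left out were at 0 in replicate 1 (2 pairs) or replicate 2 (15 pairs), and their 34 other values ranged from 0.0118 to 0.724. The lowest value that stayed in was 0.00381. None of the 17 held the Nanog or the M6pr promoter. The reporters were made in E14TG2a, an established line of embryonic stem cells of the mouse, kept in 2i+LIF medium (inhibitors of a pair of kinases plus leukaemia inhibitory factor). Plasmids of the Klf2, Nanog and negative control libraries were mixed, transfected together by nucleofection, and read 24 h later. Each of the 3 replicates was a separate transfection of the same library mix. The tests below therefore measure the spread between replicates and not between plasmids of one combination. Plasmid DNA of the mix was sampled more than once, and which sample each ratio was divided by is not stated here. That spread may therefore include the plasmid input. The reporter is transient and lies on a plasmid, and no gene expression was measured from which the cell type could be checked.

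A promoter is the stretch of DNA around a gene's start where RNA polymerase II assembles. Some promoters also raise transcription from another promoter when placed near it, as an enhancer does. Nanog encodes a homeodomain factor of the pluripotent state, and its promoter holds a composite element that Oct4 and Sox2 bind in embryonic stem cells. M6pr encodes the cation-dependent mannose-6-phosphate receptor, a sorting receptor for lysosomal enzymes that is made in most cells. Much of the rest of the locus is a cluster of C-type lectin receptor genes (Clec4) of myeloid immune cells. Pairing these fragments asks whether a promoter changes the output of another one, and whether the first or the second fragment sets the level.

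Activity is the authors' deposited ratio of barcodes in reporter RNA (cDNA) to barcodes in plasmid DNA, on a linear scale. Levels given below without a replicate number are geometric means over the 3 replicates. A fragment is named by its number in the library and its orientation, and a pair by its first and second fragment, as in P010+/P004+. The labels do not define the orientation sign or say which fragment lies nearer the barcode. Which orientation of a fragment is that of its gene is therefore not stated here.

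The pairs held 15 of the library's 18 promoter fragments, in 27 orientations, and made up 48 combinations of fragments. No fragment was paired with itself, and the promoters of Dppa3, Clec4b1 and Clec4d occurred in no pair. Every fragment spans 450 bp between its start and end on chromosome 6 (mm10), and for some only the start is given here. Of the fragments the results turn on, P001 (122308357 to 122308807) overlaps the start of M6pr and P010 (122707113 to 122707563) that of Nanog. P003 (122391003 to 122391453) overlaps 1700063H04Rik, an uncharacterised gene. P007 (122602339 to 122602789) overlaps Apobec1, which encodes an RNA-editing cytidine deaminase. P004 (122498686 to 122499136) overlaps no protein-coding gene in RefSeq. It lies 11624 bases from Rimklb, the nearest such gene, which encodes a glutamate-ligating enzyme. P002 (122340486) lies 259 bases from Phc1, a Polycomb subunit gene. P014 (122856086) overlaps C3ar1, the receptor for complement fragment C3a. The lectin receptor fragments are P016 (122921155), which lies 243 bases from Clec4a1, P017 (122921472, Clec4a1), P018 (122952139, Clec4a3), P019 (122989991, Clec4a4), P022 (123172517, Clec4b2), P023 (123229467, Clec4n) and P025 (123289795, Clec4e). P016 and P017 overlap by 133 bases and so share sequence.

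The RefSeq promoter table (GRCm38.p6) holds the 250 bases before the annotated start for 7 of the 15 fragments, all inside the cloned fragment. Of these, 4 are printed 5′ to 3′ on the gene's strand. They are the Nanog promoter, a pair of fragments that were highly active next to it (P003 and P007), and a lectin promoter (P017) that was silent alone and shares a motif with it. Capitals mark every match, on either strand, to the core of the octamer that Oct factors bind (TTTGCAT). They also mark every match to a Sox factor site with the letters ACAATG. The last letters marked are those of a TATA box, TATAAA. None of the matches overlap each other in these windows.
Nanog (P010), chr6:122707239-122707488, plus strand: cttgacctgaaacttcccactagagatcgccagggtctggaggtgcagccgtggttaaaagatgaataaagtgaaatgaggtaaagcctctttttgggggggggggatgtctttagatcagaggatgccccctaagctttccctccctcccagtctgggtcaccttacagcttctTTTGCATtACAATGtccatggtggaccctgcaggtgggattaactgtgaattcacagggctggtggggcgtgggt
1700063H04Rik (P003), chr6:122391129-122391378, plus strand: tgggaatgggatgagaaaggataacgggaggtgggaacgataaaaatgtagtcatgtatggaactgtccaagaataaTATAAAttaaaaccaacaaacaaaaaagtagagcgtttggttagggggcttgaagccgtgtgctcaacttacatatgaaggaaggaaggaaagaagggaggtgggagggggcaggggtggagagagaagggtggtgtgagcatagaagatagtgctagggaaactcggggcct
Apobec1 (P007), chr6:122602445-122602694, minus strand: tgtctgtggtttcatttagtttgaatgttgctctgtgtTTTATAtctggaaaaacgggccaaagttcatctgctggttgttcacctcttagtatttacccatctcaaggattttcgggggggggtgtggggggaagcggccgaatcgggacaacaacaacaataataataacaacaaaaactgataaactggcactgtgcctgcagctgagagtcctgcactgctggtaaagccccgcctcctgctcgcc
Clec4a1 (P017), chr6:122921598-122921847, plus strand: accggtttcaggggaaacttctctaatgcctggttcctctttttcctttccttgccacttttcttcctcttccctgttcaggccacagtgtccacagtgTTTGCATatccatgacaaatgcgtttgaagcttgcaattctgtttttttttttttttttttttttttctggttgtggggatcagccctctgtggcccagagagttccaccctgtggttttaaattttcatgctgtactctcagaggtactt

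The Nanog window holds the octamer core and the Sox site next to each other, starting 75 bases before the annotated start, and no TATA box. The Clec4a1 window holds the octamer core 151 bases before the start and no Sox site. Of all 32851 RefSeq windows of 250 bases, 4.12% hold the octamer core, 10.7% the Sox site and 12.4% the TATA box. TATAAA matches were present in the 1700063H04Rik, Apobec1, C3ar1 and Clec4e windows, and GC content ran from 39.6% (Clec4e) to 53.2% (Clec4a3) against a median of 52.4% over all windows. The CCAAT box, searched as CCAAT, was found only in the Clec4e window (33.8% of all windows). The GC box, searched as GGGCGG, was found only in the C3ar1 window (32.7% of all). No window of the 7 held an E box (CACGTG, 6.02% of all) or the full octamer (ATTTGCAT, 1.60%), which contains its core. An ETS site (CCGGAAG, 6.91% of all) and the NRF1 site (3.74%) were also without a match in them. A match is only a run of these letters. The octamer core and the Sox site were added to the search after the Nanog window had been read.

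The promoters alone were compared first, with the reporter that carries no insert as the background. That empty reporter gave 0.122, 0.0700 and 0.240 in replicates 1, 2 and 3, so the background of the assay itself differed between the replicates. The M6pr promoter in its plus orientation (P001+) was the most active fragment, at 4.69, 4.51 and 3.91. The Nanog promoter followed, with P010+ at 0.789, 0.627 and 0.864 and P010- at 0.451, 0.341 and 0.522. All 3 values of each lie above the empty reporter of the same replicate, and the replicates of P001+, P010+ and P010- do not overlap with each other. Turned around, the M6pr fragment (P001-) gave 0.333, 0.278 and 0.415, far below its plus orientation. Also above the empty reporter in every replicate were P007+ (Apobec1, 0.278), P002- (near Phc1, 0.242), P004+ (near Rimklb, 0.181) and P003+ (1700063H04Rik, 0.167). These 8 orientations were the only ones of 27 to do so. The other 19, which include every Clec4 and C3ar1 fragment, ranged from 0.0683 (P022-, Clec4b2) to 0.132 (P016+) with a median of 0.100, and their order is within the spread of the replicates.

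**Figure D1:**
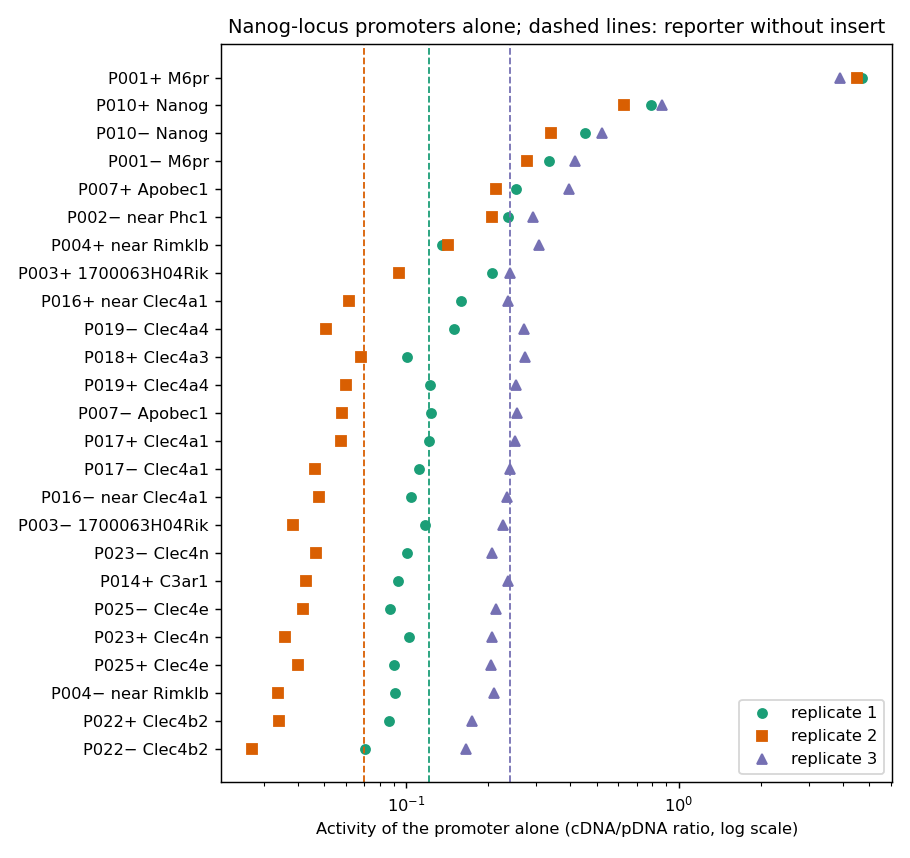
Activity of 25 oriented promoters alone (horizontal axis, cDNA to pDNA ratio on a log scale), one symbol per replicate, with the empty reporter of the same replicate as a dashed line of the same colour. P001+ stands near 4.36, P010+ at 0.753 and P010- at 0.432, while the lower fragments follow the empty reporter of each replicate.

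Activity of the 138 pairs ran from 0.0251 to 5.66. In 42 pairs it was above the empty reporter in all 3 replicates (44.8% of all 12996 combinations of the Nanog library with 3 values above 0 were), and in 50 pairs it was below it in all 3 (19.9% of those combinations). Each of the 42 holds at least 1 of the 8 oriented promoters that were above the empty reporter alone. The P010 or P001 fragment was present in 41 of them, and the remaining one, P016-/P007+, gave 0.152. Over the pairs, log2 activity correlated with that of the second promoter alone at r = 0.82 and with that of the first alone at r = 0.32, and with the sum of both at r = 0.87 (n = 138). The Spearman correlations were 0.60, 0.38 and 0.82. P001+, the most active promoter alone, occurs in these pairs only in second position. These pairs share 27 oriented fragments and are not independent points. Replicates correlated with each other at r = 0.78 to 0.81.

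**Figure D2:**
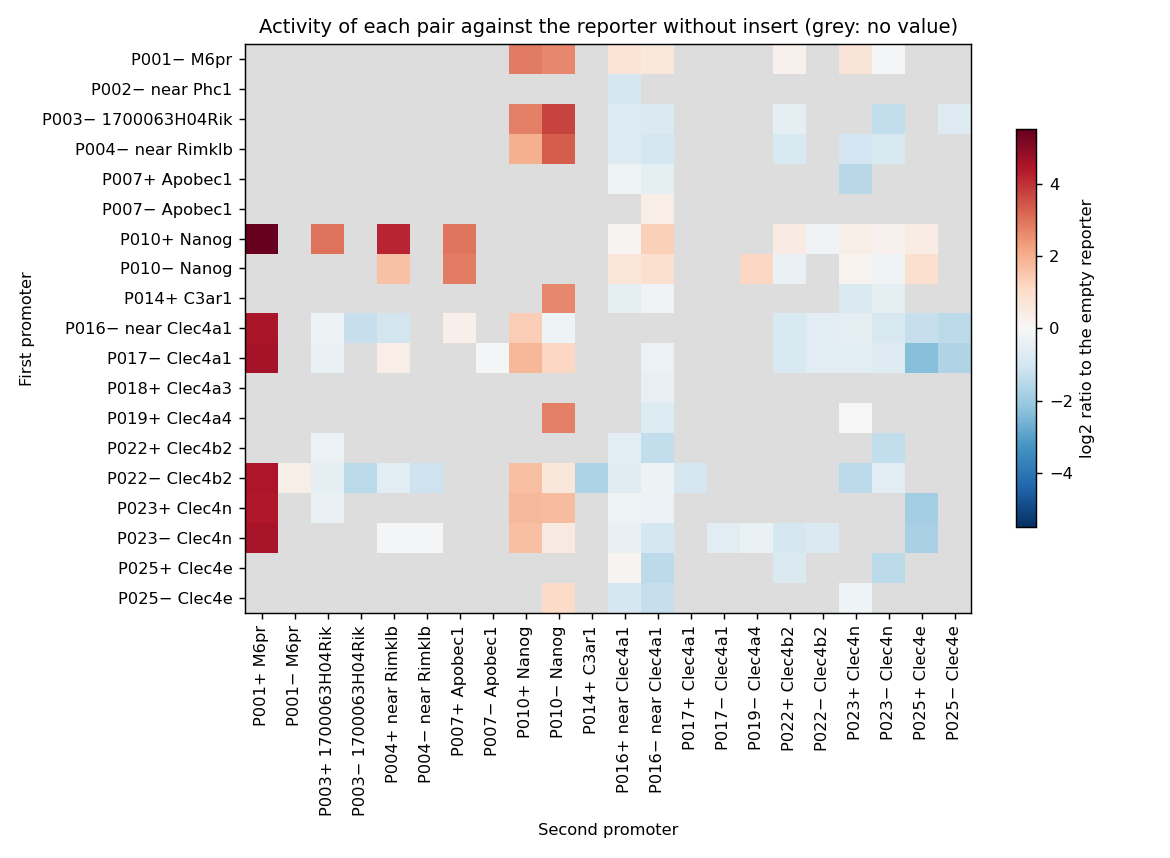
Mean log2 ratio of the pairs to the empty reporter of the same replicate, with the first promoter in rows and the second in columns; red is above the empty reporter, blue below it and grey has no value. The red columns are P001+ and P010 as second promoter, and the row of P010+ turns pale where the second promoter is a lectin receptor fragment.

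The 6 pairs with the M6pr promoter P001+ in second position were the 6 most active. P010+/P001+ gave 6.23, 6.41 and 4.53 (5.66), above P001+ alone in each replicate. The other 5 put a lectin fragment first. P017-/P001+ gave 3.66, 2.89 and 2.63, P023-/P001+ gave 3.13, 3.01 and 2.71, and P016-/P001+ gave 2.62, 2.98 and 3.07. P022-/P001+ and P023+/P001+ averaged 2.78 and 2.71. All 15 of these values lie below the lowest value of P001+ alone, 3.91. Of all combinations tested, 28.7% were below their second fragment in all 3 replicates. The differences from P001+ alone, between −0.53 and −0.69 on the log2 scale, did not pass the test against the second promoter (limma, lowest adjusted p = 0.27, and 0.080 with the replicate as a block). For P010+/P001+ the difference was 0.38 ± 0.31 (SE, adjusted p = 0.75). The replicates of these pairs were close together, with a median SD of 0.11 on the log2 scale against 1.55 for the 86 pairs that hold neither P001 nor P010. After 39 candidate cis-regulatory elements in first position, P001+ averaged 3.51, 3.28 and 3.14 in replicates 1, 2 and 3, also below 3.91.

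Each pair was next set against its second promoter alone, to ask whether a promoter placed first changes the output. In this comparison 4 of 138 pairs were higher and 0 were lower at an adjusted p under 0.05 (limma, 13 pairs at an unadjusted p under 0.05), where 8.62% of the 32080 combinations tested were higher and 0.608% lower. All 4 pair Nanog with a non-lectin fragment. P010+/P004+ gave 2.46, 2.55 and 2.02, against 0.135, 0.143 and 0.307 for P004+ alone. Neither the replicates of the second promoter nor those of P010+ alone reach these values. The difference was 3.69 ± 0.43 (SE, log2, adjusted p = 0.011), or 12.9-fold. P010+/P003+ gave 1.11, 0.954 and 0.966, against 0.206, 0.0940 and 0.241 for P003+ alone, with no overlap. That difference was 2.59 ± 0.45 (adjusted p = 0.023), or 6.03-fold. P003-/P010- gave 1.87, 1.44 and 1.67, all above the 3 values of P010- alone, and its difference was 1.94 ± 0.33 (adjusted p = 0.022), or 3.83-fold. In this pair the first fragment was silent alone in that orientation, at 0.100. P010-/P007+ gave 0.911, 0.997 and 0.752, against 0.253, 0.213 and 0.397 for P007+ alone, a difference of 1.66 ± 0.37 (adjusted p = 0.048).

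Since a pair and its promoters alone were read from the same RNA sample, the replicate number pairs them, and the fit with the replicate as a block called more pairs. It found 7 higher and 2 lower (12.6% and 2.5% of all combinations tested). The 4 pairs above were among the 7. Added were P010+/P007+ (0.727, 0.611 and 2.05, log2 difference 1.80, adjusted p = 0.032 with the block), P004-/P010- (1.61, 1.01 and 1.26, 1.56, adjusted p = 0.030) and P019+/P010- (0.962, 0.787 and 0.872, 1.01, adjusted p = 0.0499). P010+/P007+ is high in replicate 3 and below P010+ alone in the other two. The 2 lower pairs have the Clec4b2 fragment first. P022-/P010- gave 0.187, 0.130 and 0.303, which is 1.15 below P010- alone on the log2 scale (adjusted p = 0.046), and P022-/P014+ gave 0.0264, 0.0185 and 0.113, which is 1.36 below P014+ alone (adjusted p = 0.041). Without replicate 1 or without replicate 2 no pair passed either fit, and without replicate 3 the unblocked fit called 1 and the blocked fit 2. By replicate order alone, 25 pairs were above their second promoter in all 3 replicates (31.7% of all combinations) and 53 below it in all 3 (28.7%). The median log2 difference was −0.36 over the pairs and −0.06 over all combinations tested.

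P010 was in 41 of the pairs, and they show both directions. With P010 second, 18 of 20 pairs were above the empty reporter in every replicate (44.8% of the Nanog library's combinations were), and their level differed with the partner. P010+ after the 5 lectin fragments P016-, P017-, P022-, P023+ and P023- gave 0.322, 0.456, 0.395, 0.437 and 0.402. All 15 replicate values lie below those of P010+ alone in the same replicate (28.7% of all combinations were below their second fragment in all 3). None of the 5 passed the test against P010+ alone (log2 differences −0.72 to −1.22, adjusted p from 0.16, and from 0.053 with the block). After P001- and P003- the level of P010+ was 0.912 and 0.871, above P010+ alone in each replicate but by only 0.28 and 0.21 on the log2 scale. After P004-, which is not a lectin fragment, it was 0.493, also below P010+ alone in each replicate (log2 difference −0.61, limma, adjusted p = 0.44). P010- varied more, with 0.109 after P016- and 1.65 after P003-. Higher than P010- alone in every replicate were its pairs with P003-, P004-, P019+, P014+ and P001- (31.7% of all combinations were above their second fragment in all 3). Lower than P010- alone in every replicate were those with P016- and with P017- (0.282), P022- (0.195), P023- (0.179) and P025- (0.262). P014+/P010- averaged 0.799 and P001-/P010- gave 0.570, 0.928 and 0.904.

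With P010 first, the level differed widely with the second promoter. Before P001+, P003+, P004+ and P007+, each of which was above the empty reporter alone, P010+ pairs ranged from 0.969 to 5.66. Before 7 lectin fragments (P016+, P016-, P022+, P022-, P023+, P023- and P025+), they ranged from 0.111 to 0.310. Each of the 21 values lies below P010+ alone in the same replicate (33.9% of all combinations were below their first fragment in all 3). Of these 7 pairs, 5 were above the empty reporter in every replicate (44.8% of the Nanog library's combinations were). The highest, P010+/P016-, gave 0.309, 0.224 and 0.432, and the lowest, P010+/P022-, gave 0.165, 0.0357 and 0.232. P010- pairs gave 0.880 before P007+ and 0.390 before P004+, and 0.0986 to 0.277 before the lectin fragments P016+, P016-, P019-, P022+, P023+, P023- and P025+. Set against the second promoter alone, P010+ pairs with these lectin fragments were higher in every replicate in 6 of 7, with log2 differences of 0.09 to 1.56 and a median of 0.82. P010- pairs were so in 5 of 7 (31.7% of all combinations tested were), with 0.16 to 1.36 and a median of 0.67. None of the 14 passed that test with or without the block. For the M6pr fragment turned around (P001-) before 5 lectin fragments, the log2 difference from the second promoter lay between 0.26 and 1.20 and did not pass either. P001-/P023+ gave 0.153, 0.187 and 0.318, and the 6 pairs that hold P001- without P010 ranged from 0.119 to 0.211.

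**Figure D3:**
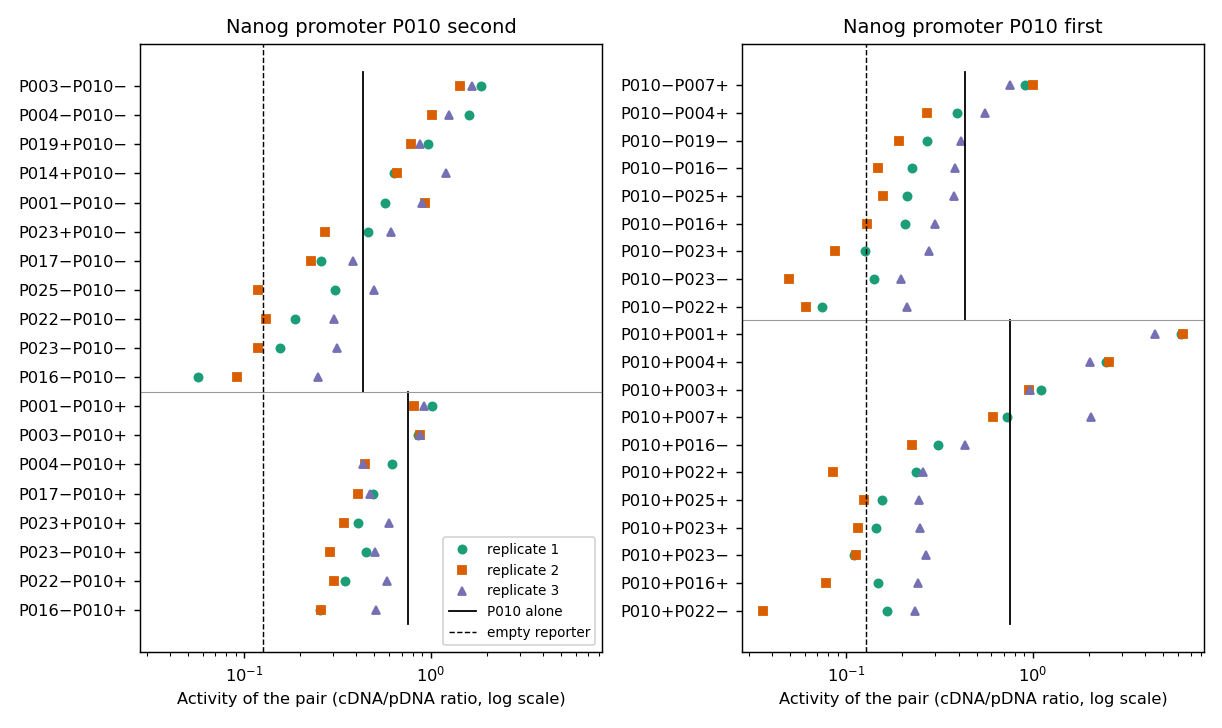
Activity of the pairs that hold the Nanog promoter P010 second (left) or first (right), one symbol per replicate, on log axes; the solid line is P010 alone in the same orientation, the dashed line the empty reporter, both as geometric means. On the right, the pairs of P010+ with P001+, P004+, P003+ and P007+ lie at 0.969 or more, and those with lectin fragments at 0.310 or less.

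Against the first promoter alone, 14 pairs were higher and 8 lower (limma, adjusted p under 0.05), where 14.3% and 8.92% of 32273 combinations were. All 14 higher pairs have P001+ or P010 second, or are P010+/P004+. The largest differences were those of P001+ after silent fragments, with 5.35 ± 0.69 for P022-/P001+ (adjusted p = 0.0029), 4.89 for both P023+/P001+ and P023-/P001+, 4.82 for P017-/P001+ and 4.77 for P016-/P001+. P010+/P004+ was 1.63 ± 0.35 above P010+ alone (adjusted p = 0.017), so it was above both of its promoters. All 8 lower pairs have P010 first and a tissue-restricted fragment second. P010+/P022- was lower by −2.76 ± 0.75 (adjusted p = 0.043), P010+/P016+ by −2.42 ± 0.51 (adjusted p = 0.017), P010+/P023- by −2.34 ± 0.48 (adjusted p = 0.015), P010+/P023+ by −2.23 ± 0.43 (adjusted p = 0.011) and P010+/P025+ by −2.17 ± 0.41 (adjusted p = 0.011). Their replicate values nowhere reach those of P010+ alone. The fit with the replicate as a block called 24 higher and 14 lower (19.6% and 14.4% of all). Without replicate 1 the unblocked fit called 0 and the blocked one 9. With the median combination of the same first promoter as the baseline, instead of that promoter alone, the unblocked fit called 12 higher and 3 lower. Of all 32273 combinations, 4774 were higher and 201 lower with that baseline. In all 3 replicates, 34 pairs were above their first promoter (32.4% of all combinations) and 53 below it (33.9%). The median difference from the first promoter was −0.31, against −0.11 over all combinations.

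Each pair was also set against the sum of both promoters alone, the level it would have if their outputs added up. That sum holds the background of the reporter once for each promoter, so a pair of silent fragments that stays at the level of either one scores about −1 on the log2 scale. The median over the pairs was −1.38, against −1.15 over all combinations tested. Against the sum, 2 pairs were higher and 8 lower (0.782% and 12.7% of 32105 combinations), and with the replicate as a block 3 were higher and 101 lower (2.42% and 68.2%). The higher pairs were P003-/P010-, 1.60 ± 0.33 above the sum (adjusted p = 0.031, 3.03-fold), and P010+/P004+, 1.31 ± 0.26 above it (adjusted p = 0.029, 2.48-fold). The block added P004-/P010- at 1.26 (adjusted p = 0.014, 2.40-fold). The 8 lower pairs all have P010 first and a tissue-restricted fragment second. Among them were P010+/P016+ at −2.67 ± 0.48 (adjusted p = 0.021), P010+/P023- at −2.53 ± 0.44 (adjusted p = 0.018) and P010+/P023+ at −2.42 ± 0.38 (adjusted p = 0.013). P010+/P001+, in which both promoters are active, lay 0.14 ± 0.24 from the sum (adjusted p = 0.62). The sum (5.12) is close to P001+ alone (4.36), from which the pair also did not differ by the test. This comparison therefore cannot tell a sum from the level of P001+ alone. Without replicate 1 or 2 the unblocked fit called none, and without replicate 3 it called 5. Above the sum in all 3 replicates were 5 pairs (4.95% of all combinations) and below it 117 (82.4%). The 5 are P010+/P004+ and P010- after P003-, P004-, P019+ and P014+. With the larger of both promoters in place of the sum, 3 pairs were higher and 6 lower.

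**Figure D4:**
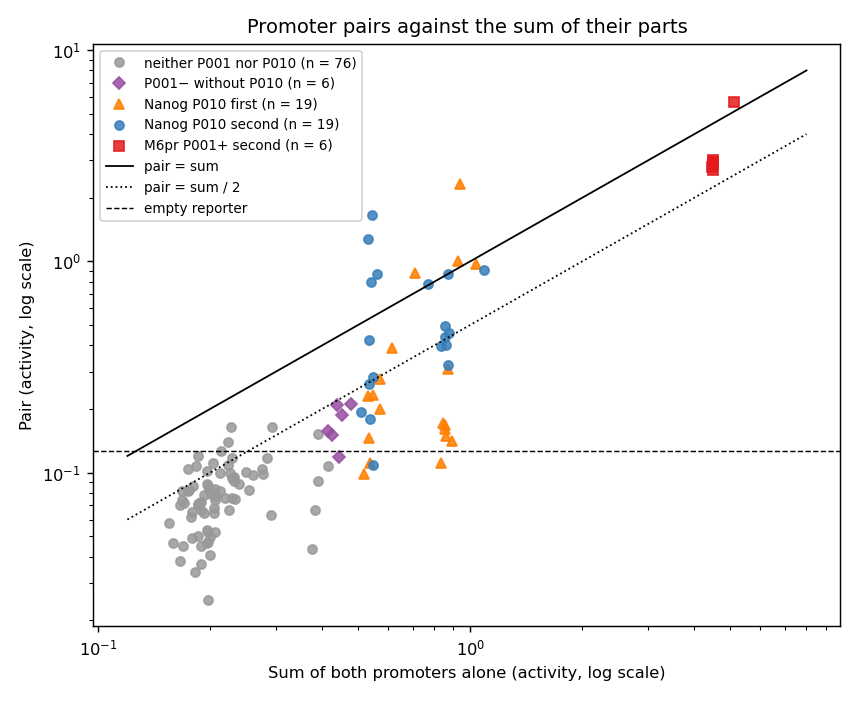
Activity of the pairs (vertical axis) against the sum of its promoters alone (horizontal axis), both as geometric means on log axes and coloured by whether P001 or P010 is present. The solid line marks a pair equal to the sum and the dotted line the sum divided by 2. The 3 pairs farthest above the solid line are P010+/P004+ (2.33), P003-/P010- (1.65) and P004-/P010- (1.27).

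Of the genes listed as pluripotency or germ-cell genes, only Nanog and Apobec1 fragments met in pairs, with Nanog first. P010+/P007+ and P010-/P007+ gave 0.969 and 0.880, and lay −0.09 ± 0.53 and 0.31 ± 0.28 from the sum of both alone (adjusted p = 0.88 and 0.40). Phc1 occurred once, in P002-/P016+, at 0.0665. The 53 pairs of 2 fragments listed as tissue-restricted ranged from 0.0251 to 0.140 with a median of 0.0706. None was above the empty reporter in all 3 replicates and 40 were below it in all 3 (44.8% and 19.9% of the Nanog library's combinations were). Of all 86 pairs without P010 and P001, which include these 53, 1 was above it and 49 were below it in all 3. Among the lowest pairs were P017-/P025+ (0.0211, 0.00457 and 0.164), P023+/P025+ (0.0340), P023-/P025+ (0.0369), P022-/P014+ (0.0381) and P017-/P025- (0.0406). All 15 values of these 5 pairs lie below the empty reporter of the same replicate, and replicate 3 lies highest in each pair. The 5 pairs were named for their low means, so values below the empty reporter follow largely from that choice. Pairs with the Clec4e fragment P025 and neither P010 nor P001 had a median of −1.36 on the log2 scale against the empty reporter (14 pairs), against −0.77 for all 86 pairs without P010 and P001.

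Order was compared in the 22 sets of 2 fragments measured both ways round in the same orientations. None passed the test (limma, 3 at an unadjusted p under 0.05), where 19.5% of 9195 such comparisons did, and with the replicate as a block 3 did (23.9%). In each of the 3, P010 was the more active in second position. P023+/P010+ gave 0.409, 0.341 and 0.596 and P010+/P023+ gave 0.145, 0.116 and 0.247, a log2 difference of 1.44 (adjusted p = 0.065, and 0.016 with the block). P023+/P010- was 1.55 above P010-/P023+ (0.14 and 0.022) and P023-/P010+ 1.43 above P010+/P023- (0.10 and 0.040). In all 3 the second position was the higher one in every replicate. Of 7 orders with P010, 6 were higher with P010 second, with a median of 1.43. The exception was P016- with P010-, which gave 0.233 with P010- first and 0.109 with it second. P010+/P016- lay only −0.05 from P016-/P010+ and was the higher in 1 replicate. The partners of P010 in these 7 were P016-, P022-, P023+ and P023-, none of them above the empty reporter alone. No partner that was above it alone was measured with P010 both ways round. The largest order difference, between P010+/P022- and P022-/P010+ at −1.83 ± 0.78, did not pass (adjusted p = 0.21, and 0.073 with the block). The 3 calls with the block were lost when any 1 replicate was left out.

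Turning the first promoter around passed the test in 1 of 24 comparisons (4.98% of 10040 did). P010+/P004+ was 2.58 ± 0.34 above P010-/P004+, which gave 0.393, 0.272 and 0.553 (adjusted p = 0.017). The other P010 comparisons lay between −0.50 and 0.81 and did not pass, and their intervals are wide (SE 0.45 to 0.68). Turning the second promoter passed in 1 of 44 comparisons, and in 2 with the replicate as a block (7.44% and 10.2% of 12297). P022-/P001+ was 4.14 ± 0.54 above P022-/P001-, which gave 0.151, 0.0812 and 0.324 (adjusted p = 0.014). The block added P004-/P010+, which was 1.37 below P004-/P010- (adjusted p = 0.033, and 0.064 without the block). P003-/P010+ was likewise below P003-/P010-, by −0.92 (adjusted p = 0.091), although P010+ was the more active orientation alone. After the lectin fragments P016-, P017-, P022- and P023-, P010+ was above P010- in every replicate, by 0.69 to 1.56 (adjusted p from 0.27). After P023+ the mean difference was 0.04, and P010+ was the higher in only 1 replicate. Each of the 2 calls without the block was lost when any 1 replicate was left out.

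Promoters in first position were last compared with candidate cis-regulatory elements (cCREs) in first position, over 14 second promoters with at least 3 combinations of each kind. Only Nanog P010+ passed, and was lower after promoters (limma, 13.3% of 60 second promoters passed, 7 higher and 1 lower). It averaged 0.506, 0.422 and 0.590 after 8 promoters and 0.917, 0.822 and 0.996 after 87 cCREs, a difference of −0.86 ± 0.19 (adjusted p = 0.043). The 8 promoters were mostly lectin fragments. P010+ gave 0.322 to 0.456 after those 5, and 0.493, 0.871 and 0.912 after P004-, P003- and P001-. Averages were taken over first fragments before the test, so its SE measures the spread between replicates and not between first fragments. P010- was lower by −0.77 ± 0.27 (adjusted p = 0.13). With the replicate as a block, 6 second promoters were lower and 1 higher after promoters. Over the 60, 6 were lower and 38 higher (73.3% passed). The median difference was −0.47 over the 14 second promoters and 0.50 over the 60, which include these 14. Of the 14, the higher one was Apobec1 P007+, at 0.506 after 3 promoters and 0.326 after 17 cCREs (0.63 ± 0.11, limma, adjusted p = 0.021 with the block). P010 was first in 2 of its 3 pairs. M6pr P001+ averaged 3.21 after 6 promoters and 3.31 after 39 cCREs, a difference of −0.04 ± 0.14 (adjusted p = 0.80). Both averages lie below P001+ alone (4.36), although the 6 promoters include P010+, whose pair gave 5.66. Without replicate 1 or 2 no second promoter passed the unblocked fit, and without replicate 3 there were 2.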

How the data were processed

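Barcodes in reporter RNA of 3 transfections and in plasmid DNA were counted by the authors, and per the labels the deposited activity is their ratio for each combination, each fragment alone and each replicate. The submitters' processing notes name Bowtie2 and mm10. Barcode filters and the number of barcodes per combination are not given in the sources used here. The depth of single values is therefore unknown, and no counting interval was given. The 3 columns of means over replicates were not used. Columns were given to samples by the replicate number and the library mix in the titles.

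Tests used limma 3.58.1 under R 4.3.3 on log2 activities of all combinations of the Klf2 and Nanog libraries with 3 values above 0, 3 values against 3, with moderated variances and Benjamini-Hochberg adjustment over all combinations tested, at 0.05. The test is two-sided and was tested on simulated data. A pair and its fragments alone come from the same RNA sample, so the replicate number pairs them. The fit with the replicate as a block is therefore given beside the fit without it. Deviations of a pair and of its second promoter from their means correlated at −0.10, 0.46 and 0.53 in replicates 1, 2 and 3 (across 138 pairs).

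Named were the 5 pairs with the largest difference in each direction against each promoter among those past the threshold, the 5 highest and 5 lowest pairs, the 3 farthest from the sum in each direction, the 3 largest effects of order and of orientation among those past the threshold with or without the block, and pairs of 2 pluripotency genes. The pairs of 1 promoter fragment are in all counts but are not reported here singly or plotted, and the next in rank were named in their place. The pairs, gene lists and tests were chosen with earlier results of these data known. Clec4a4 is on no list and was grouped with the tissue-restricted fragments only among the partners of P010. Gene positions and sequences come from RefSeq, and only protein-coding genes and 1700063H04Rik were searched for overlaps and nearest genes. Plots used matplotlib 3.10.9.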

Additional observations from a re-analysis of the deposited data

How the results depend on the processing

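The counts of pairs past the threshold depend on how the shift between replicates is handled. They are given for the comparisons with the second promoter, the first promoter, the sum, the order, the orientation of the first and of the second promoter, and cCREs, which without a replicate block stood at 4, 22, 10, 0, 1, 1 and 1. With the replicate block they were 9, 38, 104, 3, 1, 2 and 7, and with quantile normalization 48, 56, 105, 4, 2, 7 and 9. A variance trend gave 20, 29, 3, 3 and 2 for the second promoter, the sum, the order, the second orientation and cCREs. Fitting all 3 libraries gave 9 for the second promoter and 31 for the sum. Fitting the Nanog library alone gave 4 for the sum and 0 for the second orientation and cCREs. Leaving out each replicate (without replicate 1, 2 or 3) gave 0 to 1, 0 to 21, 0 to 5, 0, 0, 0 and 0 to 2, and with the replicate block, chosen after seeing the data, 0 to 2, 9 to 40, 53 to 95 (64 without replicate 3), 0, 0, 0 and 0 to 8. Requiring both values at −4 or above on the log2 scale gave 2 for the second orientation. A pseudocount of 0.01, or a floor at the empty reporter (chosen after seeing the data), gave 0 for cCREs. The product of both promoters gave 0 for the sum and turned P010+/P016+, P010+/P023- and P010+/P023+ to 0.50, 1.00 and 1.23. P010+/P007+ ranged from -0.077 to 0.60 against P010+ and from −0.49 to 0.12 against the sum (0.091 without replicate 2) with each replicate left out, with or without the block, and turned to 0.36 against the larger of both and 2.21 against the product. Of 406 other values of 27 named results, 308 kept their direction and side of the threshold, 81 lost the threshold, 6 gained it and 11 turned. The cause was not tested. Most pairs lie near the background, where the replicates differ most.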
